A study of Homo sapiens with 8 samples.

Results

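Transcript levels of 10 receptor tyrosine kinases were measured in neuroblastoma cells with and without a TRPM7 shRNA: the EGF receptor family members EGFR, ERBB2 and ERBB3, the PDGF receptors PDGFRA and PDGFRB, the related receptor KIT, the FGF receptors FGFR1 and FGFR2, the HGF receptor MET and the GAS6 receptor AXL. The genes were listed by name, and every array probe that carries one of these symbols was taken. This gave 22 of the 47322 probes on the array, and 10 of its 31426 gene symbols. Of these, 14 probes of 8 genes were detected above the negative control beads (detection p-value under 0.05) on at least 1 array. FGFR1, with 3 probes, and FGFR2, with 1 probe, were detected on 0 of 8 arrays.

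Receptor tyrosine kinases sit in the plasma membrane, bind a growth factor outside the cell and pair up, upon which their kinase domains phosphorylate each other and recruit adaptor proteins that switch on the MAP kinase and PI3 kinase cascades. The signal is limited by inhibitors that the cascade itself induces, such as Sprouty proteins and dual specificity phosphatases, and by ubiquitin ligases that send the receptors to the lysosome. PDGF receptors are used by neural crest derivatives and by mesenchymal cells, and AXL is a receptor often found in migratory, mesenchymal tumor cells.

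The arrays cover 4 groups of 2 arrays each. SH-SY5Y cells are a neuroblastic line and SH-EP2 cells an epithelial-like line, and both carried either a lentiviral shRNA against TRPM7, a cation channel with a kinase domain, or a scrambled shRNA (control cells). All 4 groups were thus transduced and selected cells. The labels give one medium for both lines, whereas the study's methods give a different medium for each, so that line and medium cannot be told apart in any comparison between the lines. Since all TRPM7 shRNA cells carried the same construct, effects of its sequence on other transcripts cannot be told apart from those of TRPM7. The duplicates were not stated to be separate cultures, so that p-values measure the spread between these arrays, which may be technical.

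The TRPM7 probe was not well above background on any of the 8 arrays, with signals of 108 to 119, and so does not check the knockdown. The labelled cell types were looked up with marker genes. Noradrenergic neuroblastoma genes were detected on both arrays of each SH-SY5Y group for 12 of 13 markers, with TH as the exception, and for 5 of 13 in SH-EP2 control cells, in which PHOX2A and DBH were among those undetected. Mesenchymal genes were detected for 12 of 12 markers in SH-EP2 cells and for 9 of 12 in SH-SY5Y cells. Between 19331 and 20904 probes were detected per array. With 2 arrays in a group, precision is limited by their number.

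The start of 3 of the receptor genes is shown, because AXL differed most between the lines and both PDGF receptors passed the test for the TRPM7 shRNA. The sequences are the 250 bases before the outermost listed start in RefSeq (GRCh38.p14), read along the gene's strand: AXL on the plus strand at chr19:41218973-41219222, PDGFRB on the minus strand at chr5:150155846-150156095, and PDGFRA on the plus strand at chr4:54229043-54229292. Capitals mark matches to 4 motifs on either strand: the AP-1 site TGANTCA, the GC box GGGCGG, the E2 box CAGGTG (the letters bound by SNAI2 and other zinc finger E-box factors) and the TEAD site GGAATG.
AXL: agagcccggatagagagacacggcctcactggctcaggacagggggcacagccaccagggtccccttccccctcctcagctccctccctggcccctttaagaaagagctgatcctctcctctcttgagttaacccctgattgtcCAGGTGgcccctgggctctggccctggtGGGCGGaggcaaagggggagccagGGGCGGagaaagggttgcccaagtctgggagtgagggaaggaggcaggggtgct
PDGFRB: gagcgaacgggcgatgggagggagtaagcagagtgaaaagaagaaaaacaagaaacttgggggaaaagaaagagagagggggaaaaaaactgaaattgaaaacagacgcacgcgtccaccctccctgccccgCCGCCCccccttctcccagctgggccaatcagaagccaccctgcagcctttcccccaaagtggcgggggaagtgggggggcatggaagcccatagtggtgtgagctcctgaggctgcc
PDGFRA: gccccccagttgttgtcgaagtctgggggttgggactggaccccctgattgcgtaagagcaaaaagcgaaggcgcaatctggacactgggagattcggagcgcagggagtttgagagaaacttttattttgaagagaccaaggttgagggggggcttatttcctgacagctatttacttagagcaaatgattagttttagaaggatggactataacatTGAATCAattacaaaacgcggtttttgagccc
In the AXL sequence 2 GC boxes and 1 E2 box were found, in the PDGFRB sequence 1 GC box on the opposite strand, and in the PDGFRA sequence 1 AP-1 site beginning 32 bases before the start. Among 35116 listed starts, the windows of this length held a GC box in 42.6%, an E2 box in 17.5%, a TEAD site in 11.9% and an AP-1 site in 6.57%. A match describes these letters and is not evidence that a factor binds, and the motifs were chosen after the levels were known.

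The 2 lines differed in transcript levels of most of the receptors. By their brightest probes, EGFR, PDGFRA, PDGFRB, MET and KIT were detected on all arrays of both lines. In control cells, 7 of the 10 genes differed between the lines, of which 4 (AXL, MET, PDGFRB and KIT) were higher in SH-EP2 and 3 (PDGFRA, EGFR and ERBB2) were higher in SH-SY5Y cells. This comparison called 30.1% of all genes and 61.8% of the genes detected on both arrays of at least 1 of the compared groups. The 10 receptors include undetected genes, so that 7 of 10 stands beside the 30.1%. Every receptor detected on both arrays of a compared group was called, which stands beside the 61.8%. These shares were not tested, and the receptors were chosen with earlier results of these data known. The values were compared with limma on the log2 scale, after RMA background correction and quantile normalization, and an adjusted p is that of limma with Benjamini-Hochberg adjustment over all probes.

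AXL, which binds GAS6, was found in SH-EP2 cells. Its brighter probe gave deposited signals of 2646 and 2521 on the SH-EP2 control arrays, and of 1957 and 1948 on the SH-EP2 TRPM7 shRNA arrays. On the 4 SH-SY5Y arrays its signal lay between 100.5 and 110.6 and was not well above background. AXL was therefore at least 277-fold higher in SH-EP2 than in SH-SY5Y control cells (adjusted p = 7.51e-18, limma). The second AXL probe had log2 signals of 10.36 and 10.51 in SH-EP2 control cells and of 2.23 and 3.29 in SH-SY5Y control cells, where it was detected on 1 of 2 arrays (adjusted p = 3.18e-15, limma), so that no fold is given.

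The PDGF receptors, which bind dimers of the PDGF ligands, were split between the lines. PDGFRB was detected on all arrays, with normalized log2 signals of 11.55 and 11.61 in SH-EP2 control cells and of 9.20 and 9.19 in SH-SY5Y control cells. The groups did not overlap, and PDGFRB was 5.21-fold higher in SH-EP2 cells (log2 difference 2.38, SE 0.0861, adjusted p = 1.37e-14, limma). PDGFRA went the other way, with log2 signals of 9.90 and 9.61 in SH-SY5Y control cells and of 6.15 and 6.32 in SH-EP2 control cells. It was 11.5-fold lower in SH-EP2 cells by the brighter probe (adjusted p = 6.01e-14, limma) and 6.2-fold lower by the dimmer probe (adjusted p = 1.57e-10, limma). KIT, the stem cell factor receptor of the same family, was close to background in all groups, at mean log2 signals between 4.87 and 5.61. It was 1.67-fold higher in SH-EP2 control cells (adjusted p = 0.0356, limma). The call was lost with neqc, normexp or no background correction, median scaling, no intensity trend, per-probe tests or averaged probes. Nor was KIT called between the TRPM7 shRNA cells, or without SH-SY5Y control replicate 1 or SH-EP2 control replicate 2. The second KIT probe did not pass (1.24-fold higher, adjusted p = 0.685, limma).

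MET, the receptor for HGF, was 9.85-fold higher in SH-EP2 cells (adjusted p = 1.18e-12, limma), with deposited signals of 517 and 497 in SH-EP2 and of 158 and 134 in SH-SY5Y control cells. The arrays of the lines did not overlap for MET under either shRNA.

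Members of the EGF receptor family were closer to background. EGFR had deposited signals of 213 and 170 in SH-SY5Y control cells and of 147 and 137 in SH-EP2 control cells, a 2.95-fold lower level in SH-EP2 (adjusted p = 1.76e-05, limma). Its other probe that was detected on all arrays gave a 1.35-fold lower level that did not pass (adjusted p = 0.525, limma). The EGFR call was lost with probes averaged. It was also lost between the TRPM7 shRNA cells, with mean log2 signals of 5.665 in SH-SY5Y and 5.533 in SH-EP2. ERBB2, a co-receptor without a ligand of its own, was detected in SH-SY5Y control cells and not in SH-EP2 control cells, and was at least 2.58-fold lower in the latter (adjusted p = 0.00137, limma). This call was lost with per-probe tests and with probes averaged. The other ERBB2 probes, detected on 1 and 0 of the 8 arrays, did not pass (log2 -0.54 and -0.34, adjusted p of 0.474 and 0.585, limma). ERBB3, which has a weak kinase and signals through its partners, was detected by its brightest probe on 1 array of each SH-EP2 group and on none of SH-SY5Y, with log2 signals of 2.13 to 3.42 over all arrays.

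**Figure D1:**
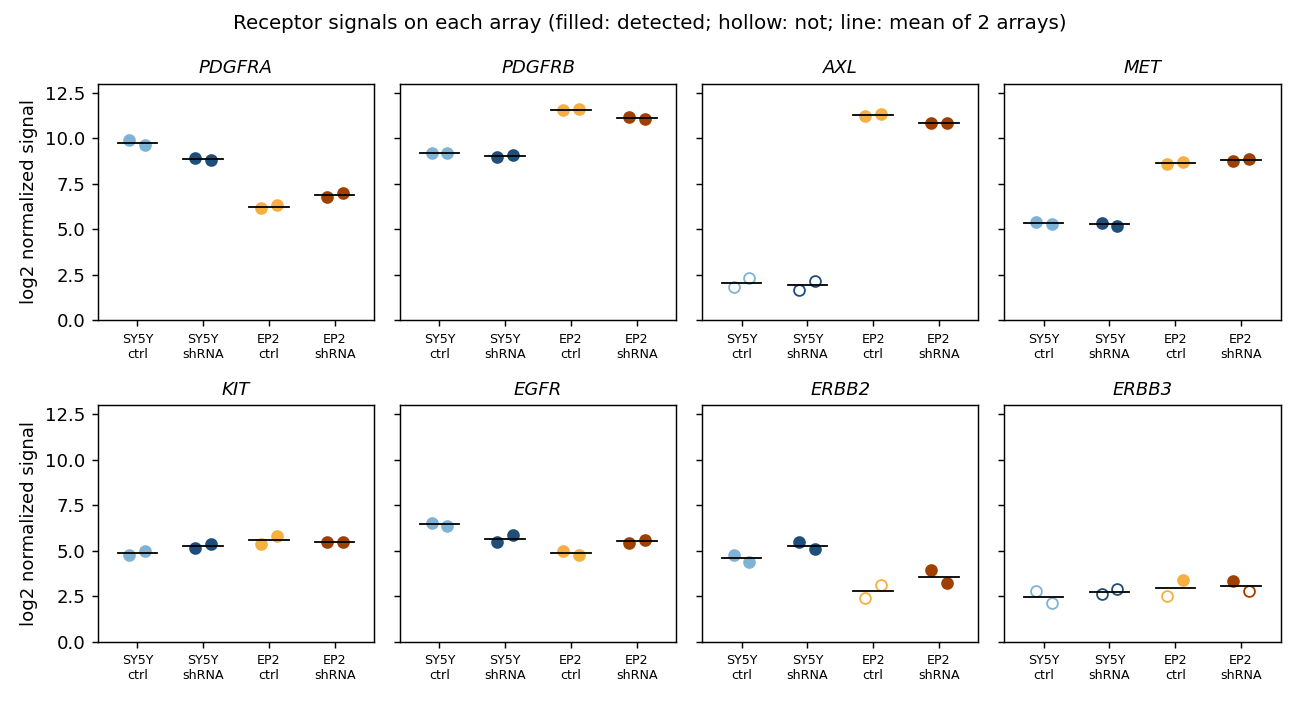
Normalized log2 signal (vertical axis) of the brightest probe of the 8 detected receptors on each of the 8 arrays, by cell line and shRNA (ctrl, scrambled shRNA; shRNA, TRPM7 shRNA). AXL and MET are high in SH-EP2 cells and PDGFRA is high in SH-SY5Y cells, whereas KIT, EGFR, ERBB2 and ERBB3 stay under 7 on every array.

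**Figure D2:**
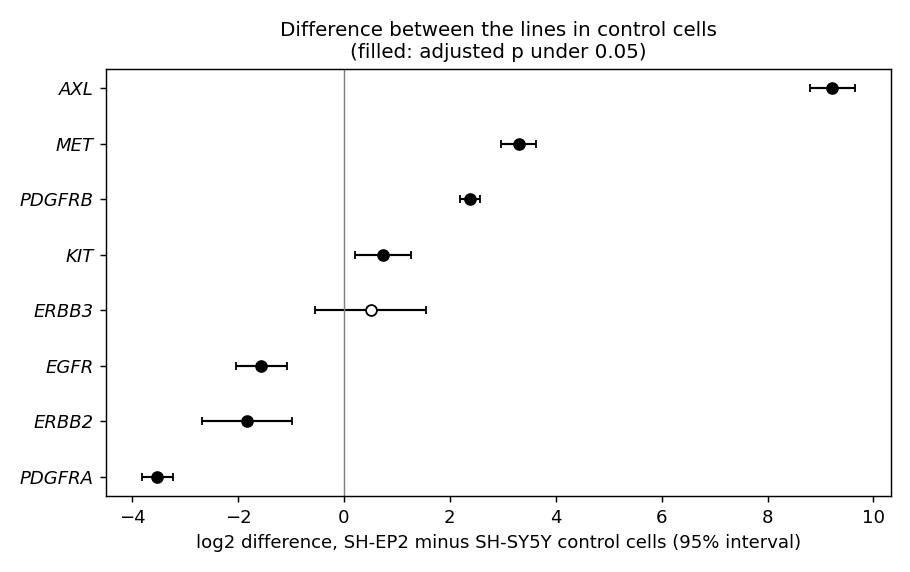
Fitted log2 difference between SH-EP2 and SH-SY5Y control cells for the 8 detected receptors, with its 95% confidence interval. Filled points passed the adjusted threshold, from AXL at 9.22 to PDGFRA at -3.52; for AXL and ERBB2 one line was at background, so that the fitted value is not a measured fold.

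PDGFRA was lower in SH-SY5Y TRPM7 shRNA cells, and was the single receptor of the 10 that passed the test there. In this comparison 2.57% of all genes and 5.51% of detected genes were called. PDGFRA log2 signals were 9.90 and 9.61 in control cells and 8.91 and 8.79 in TRPM7 shRNA cells, so that the groups did not overlap. This is a 1.87-fold lower level (log2 -0.91, SE 0.14, 95% interval -1.20 to -0.61, adjusted p = 0.000637, limma). The dimmer PDGFRA probe fell 2.27-fold (log2 -1.18, adjusted p = 0.000324, limma). The call held whichever of the 8 arrays was left out. It was lost when eBayes was used without its intensity trend or not at all (adjusted p up to 0.207), as were the knockdown calls of PDGFRB and of the listed genes named below, except that PDGFC was not refitted. The deposited signals of PDGFRA, before any normalization, were 1147 and 720 in control cells and 602 and 624 in TRPM7 shRNA cells, and the 2 control arrays thus stood further apart before normalization than after it. The summed level of the noradrenergic markers was also lower in these TRPM7 shRNA cells, at 26370 to 28440 against 37530 to 38260 normalized units (4 of 13 markers called lower, 0 higher, median log2 difference -0.24). That of the mesenchymal markers was lower too, at 16380 to 16420 against 17670 to 19220 units (3 of 12 called lower, 1 higher, median log2 difference 0.15). The part of either list in the PDGFRA difference was not tested. In bulk RNA, fewer cells of a type and less RNA per cell cannot be told apart.

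None of the other receptors passed in SH-SY5Y cells. EGFR had log2 signals of 5.46 and 5.87 in TRPM7 shRNA cells, both below the 6.54 and 6.38 of control cells, and its difference of -0.79 missed the threshold (95% interval -1.28 to -0.31, adjusted p = 0.0973, limma). The other EGFR probe detected on all arrays differed by -0.09 (adjusted p = 0.968, limma). PDGFRB differed by -0.17 (95% interval -0.35 to 0.01, adjusted p = 0.463, limma), an interval that does not reach the -0.91 of PDGFRA. The MET difference was -0.09 (95% interval -0.42 to 0.24, adjusted p = 0.914, limma). For KIT the 2 probes differed in sign, at 0.42 and -0.50, and neither passed (adjusted p of 0.594 and 0.735, limma). ERBB2 had a difference of 0.68 with a wide interval (95% interval -0.17 to 1.53, adjusted p = 0.587, limma).

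In SH-EP2 cells 2 of the 10 receptors changed, both PDGF receptors, in opposite directions, where 3.67% of all genes and 8.17% of detected genes were called. PDGFRB, the PDGF receptor that was higher in this line, had deposited signals of 3190 and 3018 in control cells and of 2452 and 2308 in TRPM7 shRNA cells. The groups did not overlap, and PDGFRB was 1.38-fold lower with the TRPM7 shRNA (log2 -0.46, SE 0.0861, 95% interval -0.64 to -0.28, adjusted p = 0.00318, limma). PDGFRA, the one that was lower in this line, had deposited signals of 187 and 183 in control cells and of 225 and 237 in TRPM7 shRNA cells. It was 1.56-fold higher (log2 0.64, SE 0.14, 95% interval 0.35 to 0.93, adjusted p = 0.0124, limma). Its dimmer probe was 1.2-fold higher and did not pass (log2 0.27, adjusted p = 0.601, limma). The PDGFRA call was lost without SH-EP2 control replicate 1, without SH-EP2 TRPM7 shRNA replicate 2 and with no background correction, and that of PDGFRB without SH-EP2 control replicate 2 and without SH-EP2 TRPM7 shRNA replicate 2. Summed mesenchymal markers were lower in SH-EP2 TRPM7 shRNA cells, at 45370 to 46410 against 55740 to 57290 normalized units. Over the 12 markers 5 were called lower and 1 higher, with a median log2 difference of -0.05, while the median level was 11.26 in control and 11.66 in TRPM7 shRNA cells, and their part in the PDGFRB difference was not tested.

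**Figure D3:**
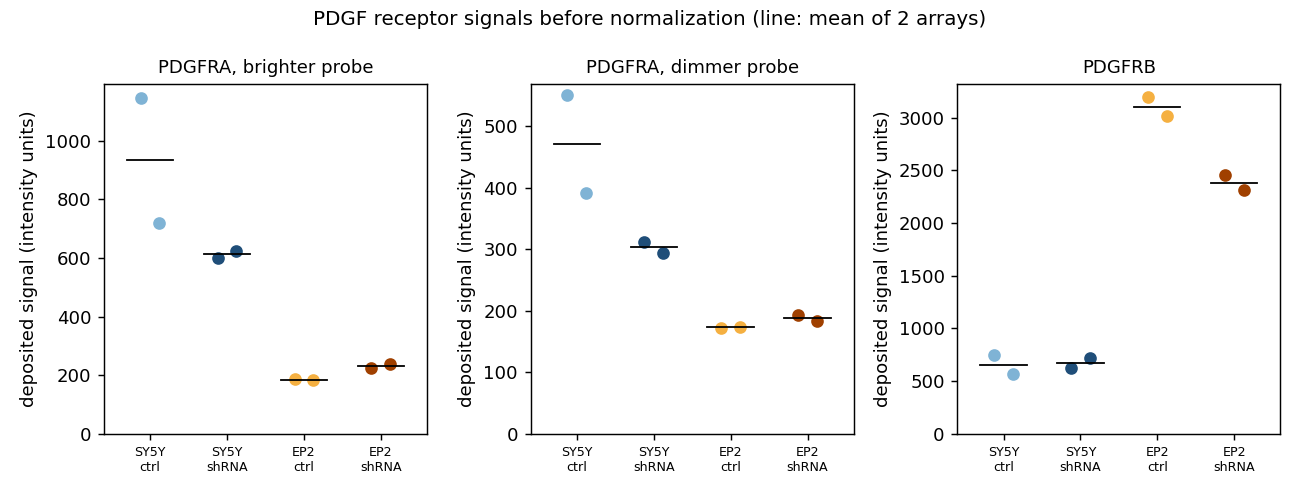
Deposited signal of the 2 PDGFRA probes and the PDGFRB probe on each array, in linear intensity units from 0, before background correction and normalization; lines are means of 2 arrays. PDGFRA is lower in SH-SY5Y TRPM7 shRNA cells and higher in SH-EP2 TRPM7 shRNA cells than in their control cells, and PDGFRB overlaps between the SH-SY5Y groups and is lower in SH-EP2 TRPM7 shRNA cells.

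AXL was lower by both probes in SH-EP2 TRPM7 shRNA cells without passing the test. Log2 signals of the brighter probe were 11.24 and 11.30 in control cells and 10.84 and 10.82 in TRPM7 shRNA cells, a 1.36-fold lower level (log2 -0.44, SE 0.20, adjusted p = 0.376, limma). The second probe was 1.3-fold lower (adjusted p = 0.622, limma). The error in this fit is shared by the 4 groups. For AXL it includes the SH-SY5Y arrays at background, whose SDs were 0.33 and 0.35 against 0.0475 and 0.0132 in SH-EP2 cells. It also depends on the intensity trend, which eBayes takes at the probe's mean over all arrays of both lines. The parts of these in the missed call were not tested. With SH-EP2 cells normalized and fitted alone, the difference was -0.45 and passed (adjusted p = 3.14e-05, limma). It also passed with neqc, normexp or no background correction (adjusted p of 0.0332, 0.00418 and 0.00119, limma). It did not pass with median scaling, detected probes alone, a replicate block or averaged probes (adjusted p of 0.26 to 0.527, limma). Nor did it pass without the intensity trend (adjusted p = 0.607, limma) or with per-probe tests (adjusted p = 0.636, t-test without eBayes). The difference lay between -0.47 and -0.41 whichever array was left out.

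The remaining receptors did not pass in SH-EP2 cells. EGFR had log2 signals of 5.45 and 5.61 with the TRPM7 shRNA, above both control arrays, and a difference of 0.63 (95% interval 0.15 to 1.12, adjusted p = 0.196, limma), whereas the other EGFR probe detected on all arrays differed by -0.42 (adjusted p = 0.763, limma). MET was 1.12-fold higher (95% interval -0.16 to 0.50 in log2, adjusted p = 0.765, limma) and KIT 1.1-fold lower (95% interval -0.67 to 0.40 in log2, adjusted p = 0.908, limma). ERBB2 was detected on both TRPM7 shRNA arrays and on neither control array, at least 1.28-fold higher, and did not pass (adjusted p = 0.426, limma). ERBB3, FGFR1 and FGFR2 were too close to background for any statement on the knockdown.

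**Figure D4:**
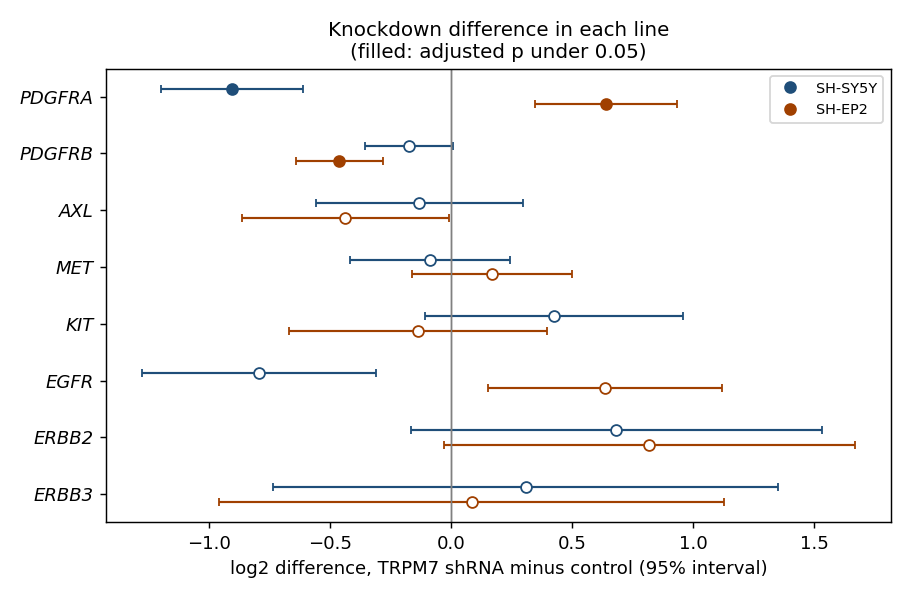
Fitted log2 difference between TRPM7 shRNA and control cells for the 8 detected receptors in SH-SY5Y and SH-EP2 cells, with 95% confidence intervals; filled points passed the adjusted threshold. PDGFRA lies at -0.91 in SH-SY5Y and at 0.64 in SH-EP2 cells, and the EGFR intervals also lie on opposite sides of 0.

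The effect of the TRPM7 shRNA was compared between the lines by an interaction term, which called 1.78% of all genes and 3.52% of detected genes. It was past the threshold for 2 of the 10 receptors. For PDGFRA the effect in SH-EP2 exceeded that in SH-SY5Y cells by 1.55 on the log2 scale (SE 0.20, 95% interval 1.13 to 1.96, adjusted p = 0.000127, limma), and by 1.45 with the dimmer probe (adjusted p = 0.00206, limma). This interaction was called whichever of the 8 arrays was left out. With the shRNA the PDGFRA levels of the lines came closer together, from mean log2 signals of 9.75 and 6.23 to 8.85 and 6.87. EGFR differed likewise by 1.43 (95% interval 0.74 to 2.11, adjusted p = 0.0301, limma), but of the 8 fits that left out 1 array, the call was kept in 1, without SH-SY5Y TRPM7 shRNA replicate 2, and the difference ranged from 1.22 to 1.64. The other EGFR probe detected on all arrays gave -0.33 (adjusted p = 0.905, limma). For PDGFRB, called in SH-EP2 alone, the interaction of -0.29 did not pass (95% interval -0.54 to -0.03, adjusted p = 0.405, limma), so that a difference between the lines was not shown.

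The ligand families of these receptors were listed as 35 genes, all on the array and 22 detected on at least 1 array. The list goes by family, and some of its genes, such as FGF13, NRG3 and NRG4, are not established ligands of the receptors studied here. In SH-EP2 TRPM7 shRNA cells 2 of 35 were lower and 0 higher, where 3.67% of all genes and 8.17% of detected genes were called. The median log2 difference of the ligands was -0.06 against 0.01 over all genes. GAS6, the ligand of AXL and its relatives, fell 1.52-fold from a mean log2 signal of 11.90 to 11.30 (adjusted p = 0.000455, limma), and did not pass when the probes of a gene were averaged. HBEGF, a ligand of EGFR, fell 1.61-fold from 8.75 to 8.06 (adjusted p = 0.0131, limma), a call lost without SH-EP2 control replicate 1 or 2 or TRPM7 shRNA replicate 1. In SH-SY5Y cells the median of the ligands was 0.08 against 0.00 over all genes. There 1 of 35 ligands was called, against 2.57% of all genes and 5.51% of detected genes. This was PDGFC, a ligand of PDGFRA named after its value was seen, which had a mean log2 signal of 1.74 in control and of 3.11 in TRPM7 shRNA cells (adjusted p = 0.0229, limma), too close to background for a fold. The interaction was called for GAS6 (-0.54, adjusted p = 0.0413, limma).

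Between the control cells of both lines, 13 of 35 ligands were higher and 1 lower in SH-EP2, a share not far from the 30.1% of all genes called in this comparison (61.8% of detected genes), and the 13 include FGF10, which was detected on 0 arrays. GAS6 was 15.8-fold higher (adjusted p = 1.34e-17, limma), so that receptor and ligand of the pair AXL and GAS6 were both higher in this line. PDGFC and PDGFA were at least 36.6-fold and at least 9.88-fold higher in SH-EP2 cells, the line with the higher PDGFRB and the lower PDGFRA. HGF, the ligand of MET, was at least 10.7-fold lower in SH-EP2 cells (adjusted p = 1.28e-09, limma), opposite to its receptor.

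Of 27 adaptors and proximal effectors, 0 passed in either knockdown or in the interaction, with medians of -0.03 and -0.04 in SH-SY5Y and SH-EP2 cells. Between the control lines 4 were higher and 12 lower in SH-EP2, a share close to the 61.8% of detected genes called. The docking protein GAB2 was 7.66-fold lower, and GRB14 and VAV3, an adaptor and a guanine nucleotide exchange factor, were at least 6.7-fold and at least 2.3-fold lower. PIK3CB, a catalytic subunit of PI3 kinase, was 2.63-fold higher, SHC1 2.1-fold and NCK1 1.48-fold (adjusted p of 0.00103 or less for these 6, limma). The PIK3CB call was lost between the TRPM7 shRNA cells. That of GRB14 was lost with probes averaged, and that of VAV3 with probes averaged or with per-probe tests.

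Of 26 measured feedback and turnover genes, 4 were higher and 1 lower in SH-EP2 TRPM7 shRNA cells, where 3.67% of all genes and 8.17% of detected genes were called, and their median was 0.20 against 0.01 over all genes. DUSP6, a phosphatase of ERK, rose 2.18-fold from a mean log2 signal of 7.24 to 8.36 (adjusted p = 3.67e-05, limma). SPRY2, a Sprouty inhibitor of the MAP kinase cascade, rose 1.86-fold from 7.19 to 8.09 (adjusted p = 3.99e-05, limma). ERRFI1, an inhibitor of EGFR, rose 1.68-fold from 11.44 to 12.18 (adjusted p = 0.000309, limma). These 3 calls held whichever of the 8 arrays was left out. CBLB, a ubiquitin ligase, rose 1.59-fold (adjusted p = 0.0203, limma), and FGFRL1, an FGF receptor without a kinase domain, fell 1.61-fold (adjusted p = 0.0305, limma), both calls being lost whichever of the 4 SH-EP2 arrays was left out.

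In SH-SY5Y cells the median of the 26 was -0.06. There 0 of the 26 rose and 1 fell, where 2.57% of all genes and 5.51% of detected genes were called. That gene was again FGFRL1, which was 2.17-fold lower (adjusted p = 0.000613, limma). The interaction was called for 4 of the 26, all with a higher effect in SH-EP2 cells: DUSP6 (1.35, adjusted p = 0.000418), SPRY2 (0.98, adjusted p = 0.00113), ERRFI1 (0.79, adjusted p = 0.00842) and SH3KBP1 (0.69, adjusted p = 0.0232, limma), an endocytic adaptor that was called in neither line alone and is named after its value was seen. The interaction called 1.78% of all genes and 3.52% of detected genes. For CBLB the interaction did not pass (0.28, adjusted p = 0.734, limma).

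Between the control lines, 6 of the 26 were higher and 9 lower in SH-EP2 cells, again a share close to the 61.8% of detected genes called. DUSP6 and SPRY2, which rose with the TRPM7 shRNA, were 4.3-fold and 9.3-fold lower in SH-EP2 than in SH-SY5Y control cells, and DUSP4 at least 2.44-fold lower. ERRFI1 was 13.9-fold higher, SH3KBP1 11.3-fold and LRIG3, a membrane protein related to inhibitors of EGFR, at least 6.14-fold (adjusted p of 0.000291 or less for these 6, limma). The line and knockdown comparisons share the control arrays, so that these values are given side by side and were not correlated.

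Among the 8 closest relatives of the receptors, MERTK and FGFR3 were called in SH-EP2 TRPM7 shRNA cells, and 0 were called in SH-SY5Y TRPM7 shRNA cells. The SH-EP2 comparison called 3.67% of all genes and 8.17% of detected genes, and that in SH-SY5Y cells 2.57% and 5.51%. MERTK, which shares the ligand GAS6 with AXL, rose 2.44-fold from a mean log2 signal of 5.45 to 6.74 (adjusted p = 0.000126, limma), while it was at 7.30 and 7.28 in SH-SY5Y cells. Its interaction was 1.30 (adjusted p = 0.00608, limma). TYRO3, the third receptor of this family, had a difference of 0.04 in SH-EP2 cells (adjusted p = 0.97, limma). FGFR3 fell 1.74-fold (adjusted p = 0.0274, limma), a call lost whichever of these 4 arrays was left out. In control cells CSF1R, a relative of KIT and the PDGF receptors, was at least 7.31-fold higher in SH-EP2, FGFR3 was 1.95-fold higher, and MERTK, FGFR4 and TYRO3 were lower by 3.58-fold, at least 1.28-fold and 1.43-fold. The FGFR3 call between the lines was lost with probes averaged and between the TRPM7 shRNA cells. The FGFR4 call was lost whichever of the 4 control arrays was left out and with neqc. That of TYRO3 was lost without SH-SY5Y control replicate 2 or SH-EP2 control replicate 1 or 2. ERBB4 was also called (adjusted p = 0.00565, limma) but was detected on 0 arrays.

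Of 31 further receptor tyrosine kinases, 2 were called higher in SH-EP2 TRPM7 shRNA cells and 0 passed in SH-SY5Y cells. The 2 of 31 is a share not far from the 3.67% of all genes and 8.17% of detected genes called in SH-EP2 cells. EPHB2, an ephrin receptor, rose 2.92-fold from a mean log2 signal of 4.21 to 5.76 (adjusted p = 0.0041, limma), a call lost without SH-EP2 control replicate 1 or TRPM7 shRNA replicate 2. DDR1, a collagen receptor, rose 1.82-fold (adjusted p = 0.022, limma), and this call was likewise lost whichever of the 4 SH-EP2 arrays was left out. Neither interaction passed (adjusted p of 0.0605 and 0.181, limma). In control cells 8 were higher and 3 lower in SH-EP2, where 30.1% of all genes were called. EPHA3 was at least 65.8-fold higher, EPHA5 at least 6.73-fold and ROS1 at least 5.23-fold. ROR2, a Wnt receptor, was 12.2-fold lower, EPHB4 1.97-fold and EPHB2 1.91-fold. The EPHB2 call was lost without SH-SY5Y control replicate 1 or SH-EP2 control replicate 1, and with neqc, normexp or no background correction.

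**Figure D5:**
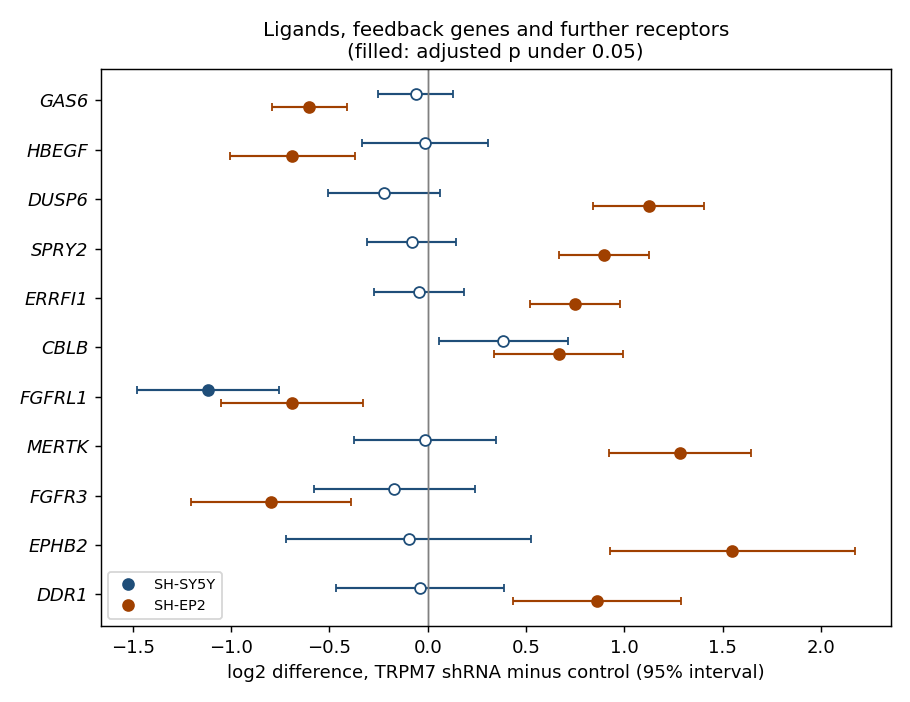
Fitted log2 difference between TRPM7 shRNA and control cells, with 95% confidence intervals, for the 11 ligands, feedback genes and further receptors named in the knockdown comparisons and detected on all arrays (PDGFC is not drawn); filled points passed the adjusted threshold. In SH-EP2 cells DUSP6, SPRY2, ERRFI1 and MERTK lie between 0.75 and 1.28, and in SH-SY5Y cells FGFRL1 is the filled point among those drawn, at -1.12.

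The genes whose signals over the 8 arrays were most like those of each receptor were looked up among 15873 genes, as a description that mainly follows the difference between the lines. For AXL these were SDPR and NNMT (Pearson's r over 8 arrays of 1.00 for both), for PDGFRB C16orf30 and TRAM1 (0.999 for both), and for MET GAGE12I and CDH10 (1.00 for both). PDGFRA was most like LOC730525 and the endothelin receptor EDNRA (0.997 and 0.996). EGFR was most like PPAP2B and SLC6A15 (0.982 and 0.972), ERBB2 most like LOC644949 and EPB41 (0.989 and 0.987), and the dim KIT most like ANXA10 and MRPL41 (0.948 and 0.945).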

How the data were processed

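Bead intensities, linear and without normalization, and a detection p-value for each of 47322 probes were deposited by the authors, who used GenomeStudio (version 2011.1 in the submitters' processing notes). Labels gave each array's line and shRNA. Because the study's methods name Robust-Multi-Array and no test, the RMA background was subtracted, the 8 arrays were quantile normalized, and log2 values of the 4 groups were fitted in R 4.3.3 with limma 3.58.1 (and statmod 1.5.0), using eBayes with a trend on intensity. Tests were two-sided and adjusted by Benjamini-Hochberg over all probes, at a threshold of 0.05 and without a filter. The procedure was run on simulated arrays whose noise followed mean intensity, which cannot test whether the intensity trend is apt for these arrays. A gene is its probe with the highest mean signal. A fold is "at least" where one group was undetected, against the lowest detected signal per array or the probe's own, if higher. The receptors and lists were chosen with earlier results of these data known. 1 of 27 listed feedback genes, SEF, matched no symbol. Beside the receptors, listed genes were named if called, detected on both arrays of the brighter group and without overlap, up to 4 per direction in a knockdown and 3 between lines, and the 2 genes most correlated with each receptor. The labels name no batch. As alternatives, the background was handled by neqc (offset 16), by normexp (offset 50) or not at all, and further ones were median scaling, probes detected on at least 2 arrays, no trend, per-probe tests, each line alone, a replicate block, the mean over probes and leaving out each array. A crossed block, and the TRPM7 shRNA arrays for the line difference, were added after seeing the data.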

Additional observations from a re-analysis of the deposited data

Results flagged for a closer look

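The effect of the TRPM7 shRNA differed between SH-EP2 and SH-SY5Y cells by the interaction term for the genes below, each given as the effect in SH-EP2 minus that in SH-SY5Y cells on the log2 scale. PDGFRA differed by 1.55 with its brighter and by 1.45 with its dimmer probe, and the effects had opposite signs in the lines with both probes. EGFR differed by 1.43 with 1 of its probes. Among the feedback genes, DUSP6 differed by 1.35, SPRY2 by 0.98, ERRFI1 by 0.79 and SH3KBP1 by 0.69. MERTK, a relative of AXL, differed by 1.30, and their ligand GAS6 by -0.54. Causes of these differences were not tested.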

How the results depend on the processing

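Between the lines 7 receptors were called, and at least 5 under each alternative but one: with probes averaged per gene 4 were called (AXL, MET, PDGFRB and PDGFRA). Without the intensity trend, or with per-probe tests without eBayes, 0 receptors were called in SH-SY5Y cells (1 as reported), 0 in SH-EP2 cells (2 as reported) and 0 by the interaction (2 as reported). All probes called then fell from 999, 1429 and 662 to 64, 100 and 23 without the trend and to 50, 103 and 15 with per-probe tests. In SH-EP2 cells 3 receptors (PDGFRA, PDGFRB and AXL) were called with neqc, with normexp and with the line alone. In SH-SY5Y cells 2 receptors, PDGFRA and EGFR, were called with normexp and with no background correction. With probes averaged 1 was called in SH-EP2 cells (PDGFRB) and 1 by the interaction (PDGFRA). Leaving out 1 array gave 1 receptor in SH-SY5Y cells each time, 0 to 2 in SH-EP2 cells and 1 to 2 by the interaction, and 622 to 958, 675 to 1596 and 399 to 650 probes called; an array left alone in its group is assumed to vary like the others. SH-EP2 cells fitted alone gave 2587 probes called. The interaction called 1153 probes with normexp and 1248 with no background correction, and median scaling left 1 receptor in it (PDGFRA). Causes of these shifts were not tested.

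Replicate numbers did not pair the arrays: deviations of same-numbered arrays correlated at r = -0.11 in SH-SY5Y and r = -0.00 in SH-EP2 cells over 14577 probes. A replicate block left 1 receptor in the interaction (PDGFRA) and changed no other count of receptors called. A block with the numbers crossed, chosen after seeing the data, called 1420, 1873 and 1000 probes and left the 4 counts of receptors as they were.

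Apart from the called line difference of EPHB2, signs turned where no call was made. In SH-SY5Y cells with probes averaged, ERBB2 was at -0.027 and KIT at -0.040; MET was at 0.10 with median scaling and between -0.18 and 0.0020 without 1 array. In SH-EP2 cells KIT lay between -0.36 and 0.089 without 1 array. The ERBB2 interaction was 0.14, and was -0.046 with neqc, -0.044 with normexp, -0.041 with no background correction, -0.037 with median scaling, and between -0.25 and 0.51 without 1 array. EPHB2, lower in SH-EP2 than in SH-SY5Y control cells, was at 0.71 between the TRPM7 shRNA cells. Of 1247 values of single genes under an alternative, 1106 kept their direction and side of the threshold, 121 fell behind it, 6 passed it and 14 turned their sign.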
